A study of Mus musculus with 12 samples.

Results

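Wnt ligands, Frizzled receptors and the secreted proteins that block them were followed in RNA-sequencing libraries of mouse embryo heads, heterozygous or homozygous for a cell-specific alteration of Eftud2. The set held 42 of the 24421 gene rows of the deposited count table. Members were picked out by gene symbol. They comprised 18 Wnt ligands, 10 Frizzled receptors, 10 secreted inhibitors (Sfrp, Dkk, Frzb and Wif1), the co-receptors Lrp5 and Lrp6, and Axin2 and Lef1, which serve as transcriptional readouts of the pathway. Of these, 40 had enough reads to be tested among 14810 genes, and the inhibitors Sfrp4 and Dkk4 did not.

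The labels describe 12 libraries of C57Bl/6 mice in 4 groups of 3, heterozygous (control, Eftud2+/-) and homozygous (mutant, Eftud2-/-) embryos at embryonic day (E) 9.0 and 9.5. Eftud2 encodes a spliceosomal GTPase, a component of the U5 snRNP, and the labels call its alteration cell-specific. The controls also carry 1 altered copy, so no group of fully wild-type embryos was compared. The driver of the cell-specific alteration, the somite number of each library and the number of embryos behind it are not in the labels. The labels name the material in 3 ways, as neural crest cells, as cranial nerve ganglia and, in the protocol, as heads. Markers of midbrain and hindbrain, facial mesenchyme, endothelium, heart muscle and primitive red cells were all detected. Summed heart muscle markers ranged from 69.4 to 3188 CPM (counts per 1000000 of the scaled library total), and cranial ganglion neuron markers from 85.8 to 206 CPM. The libraries were therefore read as mixed tissue, in which fewer cells of a type and less RNA per cell cannot be told apart.

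Wnt proteins are secreted lipid-modified signals that bind Frizzled receptors together with the co-receptors Lrp5 or Lrp6. In the canonical branch this stabilises beta-catenin, which enters the nucleus and works with TCF/LEF factors to switch on genes such as Axin2, itself a scaffold that dampens the pathway. Secreted Sfrp proteins and Wif1 bind Wnts, whereas Dkk1 and Dkk2 act on Lrp5 and Lrp6. In the embryonic head, Wnt signals pattern the dorsal neural tube and the midbrain-hindbrain boundary, and take part in the formation and migration of neural crest.

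Total counts ran from 13914543 to 31172708 per library. Eftud2 was at 275 to 302 CPM in heterozygous and 232 to 236 CPM in homozygous libraries at E9.0, and at 248 to 264 and 221 to 226 CPM at E9.5, with every homozygous library below every heterozygous one of its stage. Heterozygous E9.0 replicate 1 stood apart in its ribosomal RNA row, Rn45s, which took 37.4% of its counts against 4.40% to 16.2% in the other libraries. Heterozygous E9.5 replicate 2 stood apart from the other members of its group in region markers. It had 228 CPM of summed midbrain-hindbrain boundary markers against 141 and 154 CPM, and 211 CPM of facial mesenchyme markers against 321 and 346 CPM. Nothing in the labels says whether libraries of a group came from separate litters, so p-values measure the spread between these libraries.

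The promoters of the 2 members that differed between genotypes (Axin2 and Fzd10) and of the member with the largest rise and the one with the largest fall with stage in heterozygous embryos (Wnt7a and Fzd7) are printed below to show the windows searched for the TCF/LEF core. They run from 250 bases before to 50 bases after the RefSeq start on the gene's own strand, in build GRCm38.p6. Capitals mark the letters CTTTG, the TCF/LEF core, or its complement CAAAG on the printed strand. The windows are chr11:108920099-108920398 on the plus strand for Axin2, chr5:128600856-128601155 on the plus strand for Fzd10, chr6:91411304-91411603 on the minus strand for Wnt7a and chr1:59481897-59482196 on the plus strand for Fzd7.
Axin2: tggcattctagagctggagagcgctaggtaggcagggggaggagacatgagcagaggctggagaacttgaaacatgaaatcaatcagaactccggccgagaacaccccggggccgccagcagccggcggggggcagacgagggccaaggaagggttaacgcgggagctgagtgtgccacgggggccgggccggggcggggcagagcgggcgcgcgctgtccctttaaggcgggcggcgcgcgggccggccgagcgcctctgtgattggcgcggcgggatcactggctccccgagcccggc
Fzd10: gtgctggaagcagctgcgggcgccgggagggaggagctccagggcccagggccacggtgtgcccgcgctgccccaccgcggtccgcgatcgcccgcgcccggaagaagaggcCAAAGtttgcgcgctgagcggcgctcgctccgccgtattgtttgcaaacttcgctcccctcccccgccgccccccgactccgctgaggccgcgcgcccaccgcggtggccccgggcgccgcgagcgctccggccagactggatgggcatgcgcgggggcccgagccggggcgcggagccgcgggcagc
Wnt7a: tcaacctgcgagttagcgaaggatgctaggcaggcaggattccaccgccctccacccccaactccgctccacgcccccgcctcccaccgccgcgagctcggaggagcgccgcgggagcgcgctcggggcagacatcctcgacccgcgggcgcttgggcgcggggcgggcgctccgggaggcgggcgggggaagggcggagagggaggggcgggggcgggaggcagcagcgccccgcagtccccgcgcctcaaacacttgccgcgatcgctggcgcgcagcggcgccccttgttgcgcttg
Fzd7: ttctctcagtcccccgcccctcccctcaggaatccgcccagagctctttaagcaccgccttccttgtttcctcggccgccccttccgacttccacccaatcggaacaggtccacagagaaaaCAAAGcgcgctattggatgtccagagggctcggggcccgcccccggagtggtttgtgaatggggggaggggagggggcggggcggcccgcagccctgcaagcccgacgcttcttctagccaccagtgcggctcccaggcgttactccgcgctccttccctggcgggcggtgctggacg
Axin2 and Wnt7a had 0 matches in this window, and Fzd10 and Fzd7 had 1 each, at 138 and 128 bases before the RefSeq start. GENCODE M21 places some starts elsewhere. The Fzd10 window begins 12 bases after its GENCODE start and lies wholly within that gene, and the Fzd7 window ends 228 bases before its GENCODE start. RefSeq windows were matched for 28 of the 42 members, with 34 windows in all. On either strand, CTTTG was in 18 of them (52.94%), against 53.93% of all 32851 promoter windows of this length. A stricter 7-letter form, with AA, AT, TA or TT after the core, was in 17.65% of the members' windows and 16.88% of all windows. Both shares were close to those of promoters at large. The members' windows were richer in G and C, with a median of 66.5% against 52.67%, and held a median of 24 CpG dinucleotides against 7. These are matches of letters, not measured binding.

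Levels within each family were compared per kilobase of exon. Wnt6, a ligand of surface ectoderm, was the most abundant ligand in every group, at a mean of 9.88 CPM per kb in heterozygous and 10.4 CPM per kb in homozygous embryos at E9.0, and 13.3 and 11.6 CPM per kb at E9.5. It held 20.96% to 25.3% of the summed ligand level per length. Its own CPM were 22.2, 19.0 and 23.8 in heterozygous and 22.2, 23.3 and 23.2 in homozygous E9.0 libraries, and 31.7, 29.6 and 26.0 against 24.4, 28.6 and 23.4 at E9.5, with overlap between genotypes at both stages. After Wnt6 came Wnt7b, Wnt5a and Wnt5b, with means from 3.47 to 7.81 CPM per kb in the 4 groups. At the other end, Wnt10a, Wnt10b, Wnt16 and Wnt8a each stayed under 0.3 CPM per kb, with as little as 1 read in a library for Wnt10a and Wnt8a.

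The most abundant Frizzled receptors stood above every ligand per length. Fzd7 led at E9.0 with 54.4 CPM per kb in heterozygous and 53.9 CPM per kb in homozygous embryos. At E9.5 Fzd2 led with 35.7 and 39.0 CPM per kb. At E9.0 Fzd2 was at 181, 164 and 172 CPM in heterozygous libraries, all below the 184, 192 and 195 CPM of homozygous ones. At E9.5 it was at 134, 117 and 141 CPM against 147, 142 and 139 CPM, with overlap. Fzd3, the receptor best known from axon guidance and planar cell polarity, was among the top 3 in every group, and Fzd4, Fzd6 and Fzd9 were at the low end, between 1.71 and 4.39 CPM per kb.

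Among the secreted inhibitors, Sfrp1 was the most abundant in all 4 groups. It had 50.9 and 50.8 CPM per kb in heterozygous and homozygous embryos at E9.0, and 34.3 and 38.8 CPM per kb at E9.5. Sfrp1 and Sfrp2 held 48.4% and 33.5% of the summed inhibitor level per length in heterozygous E9.0 libraries, and 41.8% and 37.3% at E9.5. Frzb, which belongs to the same family, came after them. Wif1, Sfrp4 and Dkk4 each had group means under 0.32 CPM per kb. Sfrp4 had 2 to 11 reads and Dkk4 0 to 8 reads per library, too few to test.

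**Figure D1:**
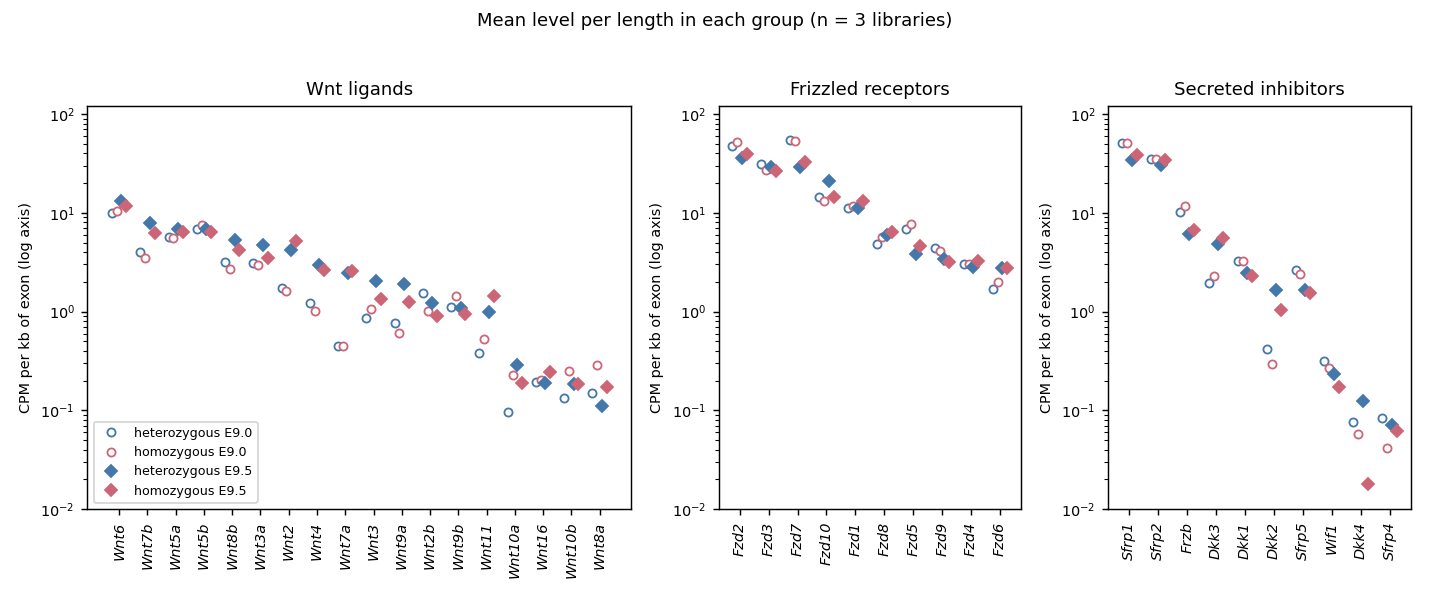
Mean level per length (CPM per kb of exon, log axis) of each ligand, receptor and inhibitor in the 4 groups, each the mean of 3 libraries. Wnt6, Fzd7, Fzd2 and Sfrp1 stand at the top of their families; Wnt8a, Wnt10a, Wnt10b and Wnt16 lie at the low end of the ligands, and Wif1, Sfrp4 and Dkk4 at that of the inhibitors.

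At E9.0 no member of the Wnt set was called different between homozygous and heterozygous embryos. The test was edgeR's quasi-likelihood test, with p-values adjusted by the Benjamini-Hochberg method over all 14810 genes and called under 0.05. The count was 0 of 40 against a background of 0.587% of all genes. That background rests on 87 genes, which became 38 without homozygous E9.0 replicate 3 and 39 without heterozygous E9.0 replicate 2, but 205 with GC and length offsets. At an unadjusted p under 0.05 the count was 5 of 40, against 13.3% of all genes. DESeq2 called 0 members, against 203 genes (1.37%), and limma-voom 0, against 51 genes (0.344%). The median log2 fold change of the 40 members was 0.00, as was that of all genes, and single values ran from -0.59 to 1.26.

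The E9.0 member with the smallest p among ligands was Wnt2b, a dorsal neural tube and eye-margin ligand. It was at 7.19, 5.04 and 7.35 CPM in heterozygous and 3.83, 5.44 and 3.58 CPM in homozygous libraries. The groups overlapped in 1 library each, and the log2 difference of -0.59 ± 0.23 (SE) had an adjusted p of 0.277. Among receptors it was Fzd8, at 30.9, 28.9 and 26.6 CPM against 35.5, 30.3 and 36.7 CPM, a log2 difference of 0.25 ± 0.10 with an adjusted p of 0.281. Among inhibitors it was Frzb, at 33.7, 28.4 and 37.5 CPM against 35.3, 39.7 and 38.8 CPM, a difference of 0.19 ± 0.10 with an adjusted p of 0.431, and with values from 0.09 to 0.29 without 1 library. None of these passed the test.

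At E9.5 homozygous embryos had less Fzd10 and less Axin2 than heterozygous embryos, and no other member was called. The count was 2 of 40, both lower, against 1.89% of all genes (1.19% higher and 0.702% lower). The 280 genes behind this background became 133, 136 and 168 without homozygous E9.5 replicate 2, 3 or 1, and 151 without heterozygous E9.5 replicate 2. They were 449 with DESeq2 and 123 with total counts. At an unadjusted p under 0.05 it was 11 of 40, against 13.4% of all genes. The median log2 fold change of the members was -0.09, against 0.00 over all genes. Scaled by total counts alone, neither gene was called, with log2 values of -0.53 for Fzd10 (adjusted p = 0.0939) and -0.47 for Axin2 (adjusted p = 0.126). Of the 18 ligands 13 had a negative value and 5 a positive one, while 7 of the 10 receptors had a positive one. Over all genes 49.2% of the values were positive. The signs were not tested.

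Fzd10 encodes a Frizzled receptor known from the dorsal neural tube. It lies at chr5:128600844-128604093 (GRCm38). At E9.5 it was at 62.2, 77.5 and 63.4 CPM in heterozygous and 49.9, 45.0 and 46.1 CPM in homozygous libraries. Every homozygous library was below every heterozygous one. The means were 67.7 ± 8.54 (SD, n = 3) and 47.0 ± 2.55 CPM, a level 1.44-fold lower in the mutants. The log2 fold change was -0.53 ± 0.09 (SE), with an adjusted p of 0.00779 by edgeR's quasi-likelihood test.

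At E9.0 Fzd10 was at 46.6, 44.7 and 49.3 CPM in heterozygous and 46.7, 36.5 and 44.6 CPM in homozygous libraries. These groups overlapped, and the log2 difference of -0.14 ± 0.10 had an adjusted p of 0.556. Between the stages Fzd10 rose in heterozygous embryos, by 0.53 ± 0.09 (adjusted p = 4.65e-04), and had a difference of 0.15 ± 0.10 in homozygous embryos (adjusted p = 0.26). The test of the difference between the genotype effects of both stages gave -0.38 ± 0.14 with an adjusted p of 0.434, so a dependence on stage was not shown. The E9.5 call was kept in 6 of 6 fits without 1 library of the compared groups, with log2 values from -0.58 to -0.41 and adjusted p up to 0.0483. Without heterozygous E9.5 replicate 2, the highest library, it was -0.41 with an adjusted p of 0.0294.

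Axin2, the negative-feedback scaffold, lies at chr11:108920349-108950783. At E9.5 it was at 72.4, 94.5 and 79.0 CPM in heterozygous and 60.3, 58.4 and 59.7 CPM in homozygous libraries. The groups did not overlap, and the homozygous libraries lay within 2 CPM of each other. The means were 82.0 ± 11.4 (SD, n = 3) and 59.5 ± 0.94 CPM, 1.38-fold lower in the mutants. The log2 fold change was -0.46 ± 0.09, with an adjusted p of 0.0154 by edgeR's quasi-likelihood test.

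At E9.0 Axin2 was at 105, 84.6 and 93.4 CPM against 86.9, 85.2 and 95.3 CPM, with overlap, and the log2 difference was -0.08 ± 0.09 (adjusted p = 0.756). Without 1 library it ran from -0.16 (without heterozygous replicate 2) to -0.0006 (without heterozygous replicate 1, the library rich in Rn45s). The difference between the stage-specific effects was -0.38 ± 0.13 with an adjusted p of 0.408. The E9.5 call was kept in 2 of 6 fits that left out 1 library of the compared groups, with adjusted p from 0.0065 to 0.073. The log2 value stayed negative in all 6, from -0.54 to -0.34. The call was lost without heterozygous replicate 2 (-0.34, adjusted p = 0.0522) and without homozygous replicate 1 (adjusted p = 0.0505), 2 (0.073) or 3 (0.0569). An exon of Gm11670 overlaps Axin2 on the opposite strand, and the sources used here do not say whether strand was used in counting. The same holds for Wnt5a, Wnt7b, Wnt11, Fzd5, Fzd6, Sfrp2 and Lef1, each with an exon of another gene on the opposite strand.

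Lef1, the other readout and the DNA-binding partner of beta-catenin, was at 27.1, 29.7 and 28.1 CPM in heterozygous and 24.0, 25.1 and 27.7 CPM in homozygous libraries at E9.5. The groups overlapped, and the log2 difference of -0.15 ± 0.12 had an adjusted p of 0.693. At E9.0 it was at 43.2, 31.1 and 31.2 CPM against 31.3, 25.1 and 32.6 CPM, a difference of -0.24 ± 0.12 (adjusted p = 0.423). It ran from -0.32 to -0.0748 without 1 library, and the value nearest 0 was found without heterozygous replicate 1. Axin2 at E9.5 was the 1 call among the readouts at either stage.

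**Figure D2:**
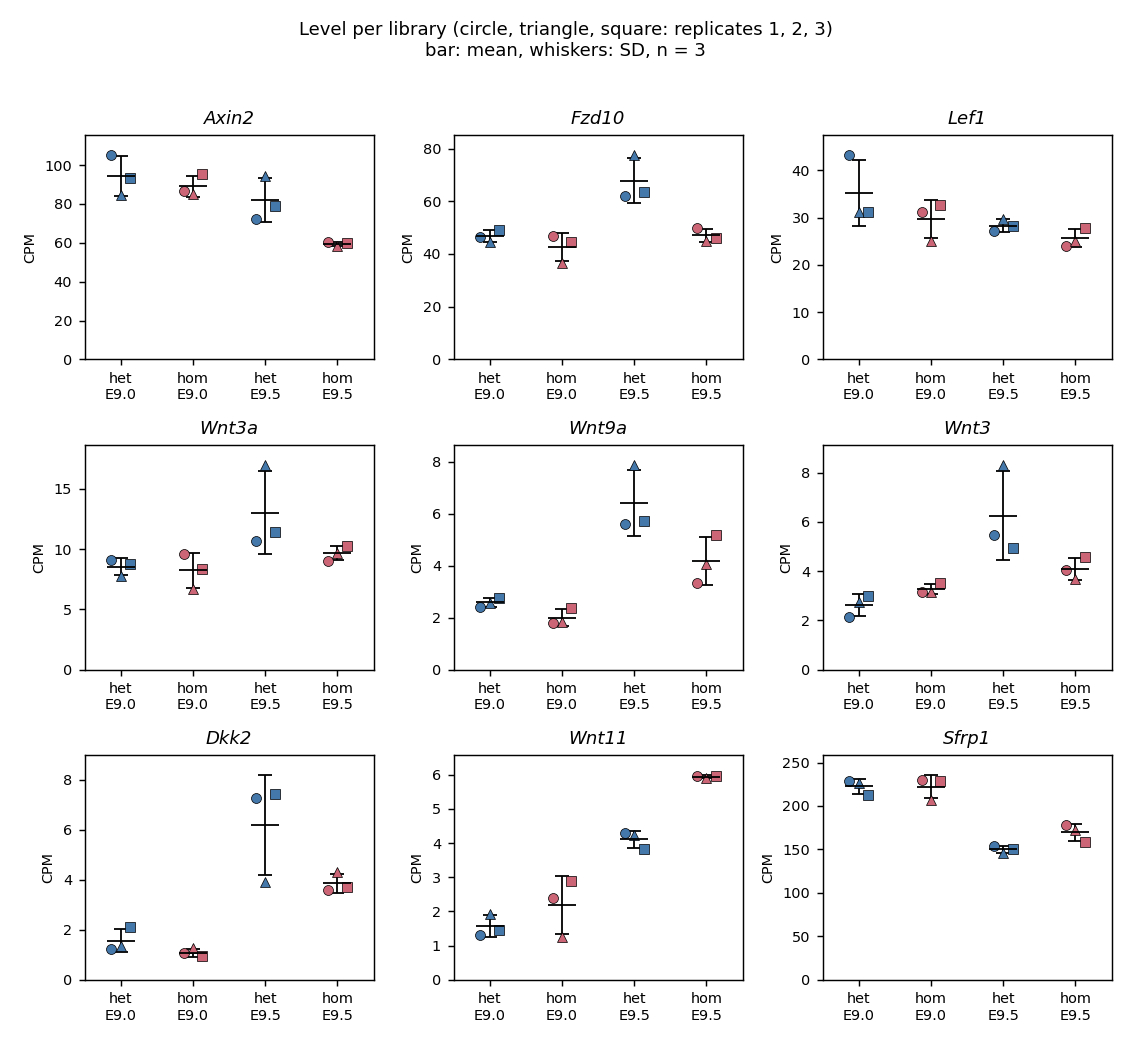
CPM of 9 members in each library (circle, triangle and square for replicates 1, 2 and 3), with the mean and SD of 3 libraries per group. At E9.5 the homozygous libraries of Fzd10 and Axin2 all lie below the heterozygous ones, and replicate 2 is the highest heterozygous E9.5 library of both genes.

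No ligand passed the test at E9.5, and 4 of 18 had groups without overlap, 3 lower and 1 higher in homozygous embryos, against 20.9% of all genes. Wnt9a was at 5.61, 7.86 and 5.72 CPM in heterozygous and 3.34, 4.05 and 5.17 CPM in homozygous libraries, without overlap, and its log2 difference was -0.62 ± 0.17 (adjusted p = 0.088). It was called without a count filter (adjusted p = 0.0466), with adjusted p from 0.0549 upward in the other alternatives. Of the 6 fits without 1 library, 0 called it. Without heterozygous replicate 2 its log2 difference was -0.44, with an adjusted p of 0.35. Wnt3, a canonical ligand, was at 5.49, 8.30 and 4.93 CPM against 4.04, 3.68 and 4.57 CPM, a difference of -0.61 ± 0.18 (adjusted p = 0.108). Wnt3a, a canonical ligand of the dorsal midline, was at 10.7, 17.0 and 11.4 CPM against 9.03, 9.70 and 10.2 CPM, a difference of -0.43 ± 0.16 (adjusted p = 0.217). In these 3 ligands the homozygous libraries lay below the heterozygous ones, and heterozygous replicate 2 was the highest library. Wnt3a and Wnt9a are neighbours on chromosome 11, 16.18 kb apart, as are Wnt3 and Wnt9b, 24.33 kb apart. Wnt9b overlapped between genotypes, with a log2 difference of -0.21 ± 0.19 (adjusted p = 0.739).

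Wnt3 had the opposite order at E9.0, where heterozygous libraries were at 2.13, 2.73 and 3.01 CPM and homozygous ones at 3.16, 3.15 and 3.51 CPM. Neither stage had overlap between the genotypes. The E9.0 difference was 0.29 ± 0.23 (adjusted p = 0.607), and the interaction with stage was -0.91 ± 0.29, the smallest p among the ligands in that test (adjusted p = 0.36). No member was called in the interaction, against 0.0675% of all genes, with 4 of 40 at an unadjusted p under 0.05 (Wnt3, Axin2, Fzd10 and Wnt10a), against 8.6% of all genes. The 10 genes behind this background were 74 (0.5%) with DESeq2, 5 (0.0338%) with limma-voom and 21 (0.143%) with GC and length offsets. DESeq2 and limma-voom called 0 members.

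Wnt11, a ligand known mainly from non-canonical signalling, was the ligand with the opposite order. It was at 4.30, 4.22 and 3.83 CPM in heterozygous and 5.97, 5.89 and 5.96 CPM in homozygous E9.5 libraries. The groups did not overlap, and the log2 difference was 0.53 ± 0.18 (adjusted p = 0.182). Of the ligands with overlapping groups, Wnt8a (0.59 ± 0.54), Wnt10a (-0.57 ± 0.38) and Wnt2b (-0.44 ± 0.21) had log2 differences of like size, with adjusted p of 0.741, 0.583 and 0.374.

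Dkk2, a modulator of Lrp5 and Lrp6 signalling, had the smallest p among the inhibitors at E9.5. It was at 7.25, 3.90 and 7.42 CPM in heterozygous and 3.57, 4.30 and 3.71 CPM in homozygous libraries. Heterozygous replicate 2 lay among the homozygous libraries, and the other 2 were above all of them. The log2 difference was -0.67 ± 0.22 (adjusted p = 0.149). Without that library it was -0.92 with an adjusted p of 0.0129, so 1 library decided the call.

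Sfrp1 was at 154, 146 and 151 CPM in heterozygous and 178, 172 and 159 CPM in homozygous E9.5 libraries. The groups did not overlap, and the log2 difference was 0.18 ± 0.06 (adjusted p = 0.189). Fzd1, Fzd4 and Fzd5 also had all homozygous libraries above the heterozygous ones at E9.5, with log2 differences of 0.23, 0.22 and 0.27, and none was called. Over all members 10 of 40 had groups without overlap at E9.5, 5 higher and 5 lower, against 20.9% of all genes (11.4% higher and 9.47% lower). At E9.0 it was 6 of 40, 5 higher and 1 lower, against 17.3% (9.07% higher and 8.2% lower). At both stages the share of members was near the background.

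The co-receptors Lrp5 and Lrp6 were not called between genotypes. At E9.5 Lrp6 was at 203, 197 and 199 CPM in heterozygous and 202, 206 and 206 CPM in homozygous libraries, a log2 difference of 0.04 ± 0.05 (adjusted p = 0.85). Lrp5 was at 68.4, 59.7 and 66.7 CPM against 74.2, 69.6 and 65.2 CPM, a difference of 0.10 ± 0.09 (adjusted p = 0.726), from 0.05 to 0.15 without 1 library. At E9.0 Lrp6 was at 214, 230 and 236 CPM against 228, 229 and 222 CPM, and Lrp5 at 89.8, 76.4 and 75.2 CPM against 78.8, 77.7 and 96.95 CPM. The groups overlapped for both genes at both stages.

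Averaged over both stages, Fzd10 and Axin2 were again the 2 members called, both lower, against 2.96% of all genes in either direction and 1.14% lower. The E9.5 libraries enter this average too, so it is no independent comparison. The log2 fold change was -0.33 ± 0.07 for Fzd10 (adjusted p = 0.0135) and -0.27 ± 0.06 for Axin2 (adjusted p = 0.0346). The Fzd10 call was kept in 12 of 12 fits without 1 library, and the Axin2 call in 3 of 12, with Axin2 values from -0.31 to -0.21. The Axin2 call was also lost with limma-voom (-0.26, adjusted p = 0.052) and with a block for replicate number (-0.27, adjusted p = 0.0625). With total counts Axin2 was at -0.17 (adjusted p = 0.491), and the Fzd10 call was lost too. At an unadjusted p under 0.05 the count was 17 of 40, against 16.9% of all genes. The smallest p of the ligands was that of Wnt9a, with -0.50 and an adjusted p of 0.084, and of the inhibitors that of Dkk2, with -0.62 and an adjusted p of 0.127. The average of Wnt9a was called without a count filter (adjusted p = 0.0482), with GC and length offsets (0.0441) and without homozygous E9.5 replicate 3 (0.046), and that of Dkk2 without heterozygous E9.5 replicate 2 (0.0163). Wnt2b was called by DESeq2 and without homozygous E9.0 replicate 2, Wnt11 without that same library, and Wnt8b without homozygous E9.5 replicate 3.

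**Figure D3:**
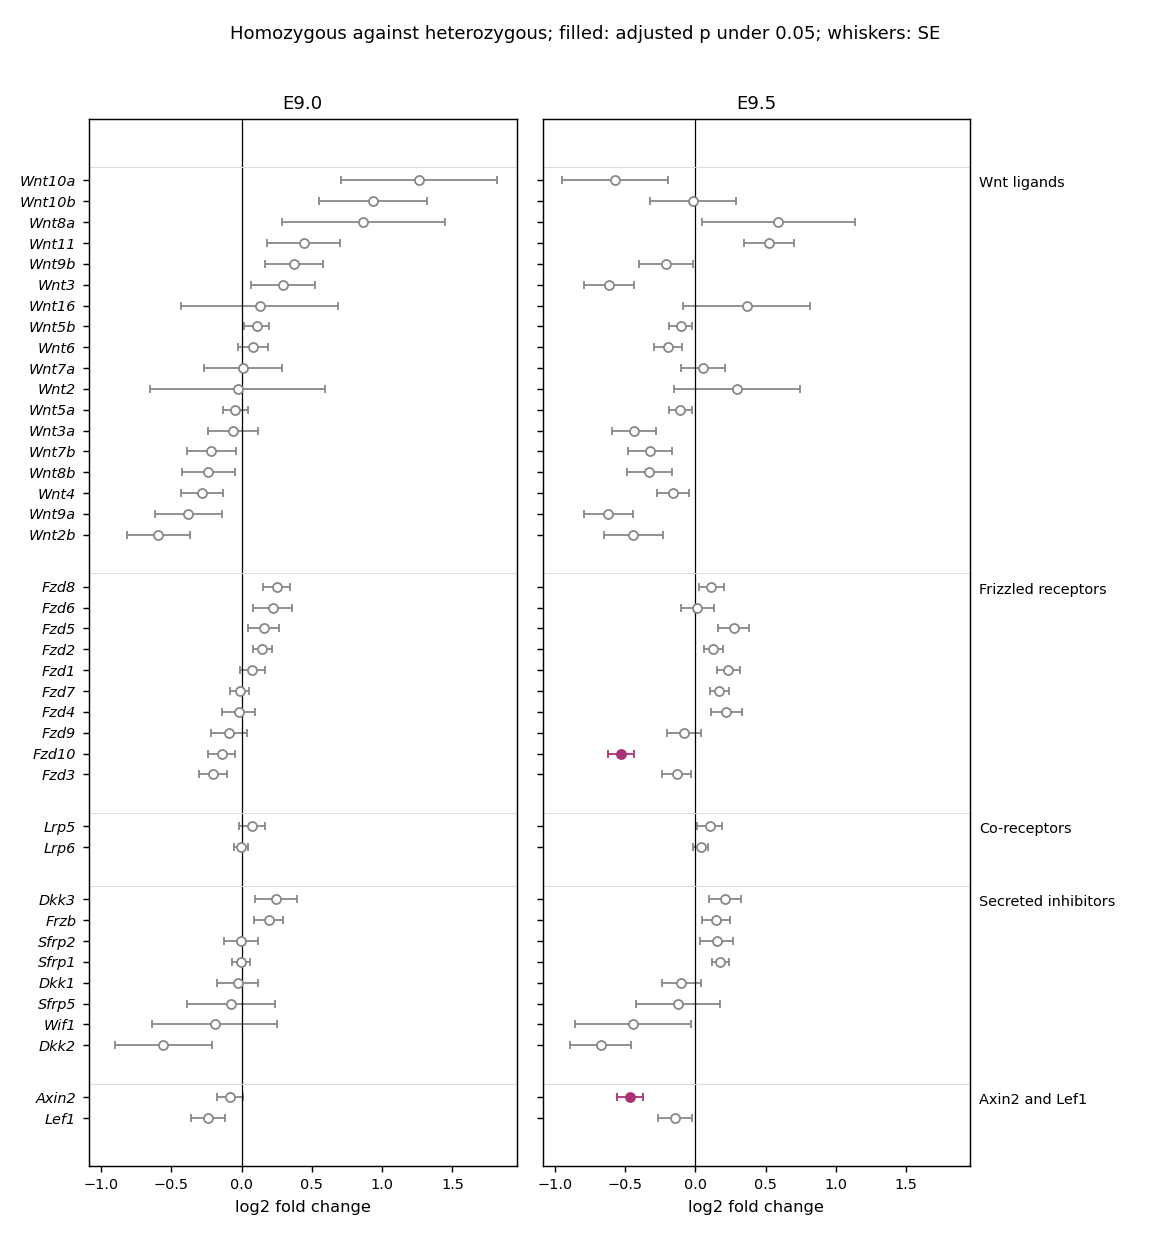
Log2 fold change of homozygous against heterozygous embryos for the 40 tested members at E9.0 and E9.5, with SE as whiskers and filled symbols for an adjusted p under 0.05. No symbol is filled at E9.0; Fzd10 (-0.53) and Axin2 (-0.46) are filled at E9.5.

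Summed over each family, the ligands were at 216 to 249 CPM in heterozygous and 196 to 211 CPM in homozygous E9.5 libraries, without overlap. The inhibitors were at 265 to 272 CPM against 282 to 309 CPM, also without overlap and in the other direction. Sfrp1 and Sfrp2, with means of 150 and 66.0 CPM in heterozygous E9.5 libraries, made up most of the inhibitor sum. Of the 8 tested inhibitors, 4 had a positive and 4 a negative log2 value at E9.5, and 0 were called. The receptors overlapped, at 829 to 900 CPM against 840 to 860 CPM. At E9.0 all 3 sums overlapped between genotypes. Of single genes, 20.9% had groups without overlap at E9.5. These sums were not tested.

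Markers of several head regions and cell types also differed between the genotypes at E9.5, where 1.89% of all genes were called. The lists were chosen with earlier results of these data known, so their counts are description only. The midbrain-hindbrain boundary list had 5 of 12 genes called lower in homozygous embryos at E9.5 (En1, En2, Cnpy1, Pax5 and Fgf18). Its summed level was 141 to 228 CPM in heterozygous and 90.1 to 109 CPM in homozygous libraries, and no marker was at 0 throughout. The roof plate and dorsal neural tube list had 3 of 9 called lower (Msx1, Pax3 and Pax7), with sums of 235 to 306 and 199 to 229 CPM. The migrating neural crest list had 4 of 8 called lower, with overlapping sums of 192 to 225 and 200 to 223 CPM. Facial mesenchyme had 5 of 11 called lower, at 211 to 346 against 187 to 229 CPM. Endothelial genes went the other way, with 7 of 8 called higher and sums of 168 to 236 against 303 to 334 CPM. Cranial ganglion neurons, the tissue that 1 label names, had 2 of 8 markers called lower (Pou4f1 and Tubb3), with sums of 175 to 206 against 151 to 161 CPM. The list was mixed in direction, with 3 of 8 values positive, from Eya2 (0.22) to Neurog2 (0.39, adjusted p = 0.123). Pharyngeal endoderm and yolk sac genes had 2 of 5 called higher (Pax9 and Nkx2-3), with overlapping sums of 10.7 to 38.7 and 21.6 to 25.2 CPM. Afp of that list, a yolk sac gene, was at 20.7 CPM in heterozygous replicate 1 and at most 0.0674 CPM in the other E9.5 libraries, and was not called (adjusted p = 0.288). The forebrain, heart muscle and surface ectoderm lists had 1 call each, all higher. The part of these regions and cell types in the Fzd10 and Axin2 results was not tested.

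Within the heterozygous E9.5 group, replicate 2 had the highest boundary sum (228 CPM) and roof plate sum (306 against 235 and 254 CPM), and the lowest facial mesenchyme sum. It was the highest of the 3 libraries for 18 of the 40 tested members and the lowest for 16. Among the 18 ligands it was the highest for 10 and the lowest for 3. The fits without it are given above for Fzd10, Axin2, Wnt9a and Dkk2. At E9.0, where no Wnt member was called, boundary sums were 183 to 222 CPM in heterozygous and 144 to 171 CPM in homozygous libraries, and roof plate sums 169 to 177 and 154 to 162 CPM. No gene of these 2 lists was called. The migrating neural crest list had 1 of 8 genes called lower at E9.0, with sums of 321 to 334 against 269.7 to 296 CPM. Endothelial sums were 259 to 277 against 307 to 315 CPM, with 0 of 8 called. In all, 7 of the 11 lists had sums without overlap between the genotypes at E9.0, 4 lower and 3 higher in homozygous embryos. At E9.5 it was 4 of 11, 3 lower and 1 higher. Of single genes, 17.3% at E9.0 and 20.9% at E9.5 had groups without overlap. The list sums were not tested.

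Of 87 other genes of the pathway, 84 were tested, and 3 were called between genotypes at E9.5 (3.57% against 1.89% of all genes). Rspo1, a secreted agonist that stabilises Wnt receptors, was at 11.98, 12.9 and 12.8 CPM in heterozygous and 6.34, 7.76 and 7.87 CPM in homozygous libraries. Its log2 fold change was -0.78 ± 0.12 (adjusted p = 0.00243). Draxin, a secreted guidance protein that inhibits Wnt signalling, was at 17.9, 23.0 and 20.1 CPM against 11.9, 9.51 and 11.6 CPM, a change of -0.89 ± 0.14 (adjusted p = 0.00386). Both were without overlap between the groups, so a secreted agonist and a secreted antagonist were lower in the same libraries.

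Hic1, a transcriptional repressor gene, rose at E9.5 by 1.18 ± 0.29 (adjusted p = 0.0459). It was low throughout, at 0.73, 0.47 and 0.78 CPM in heterozygous and 1.69, 1.60 and 1.16 CPM in homozygous libraries. DESeq2 called 4 of the 84 at E9.5 (Rspo1, Draxin, Apcdd1 and Apc2), against 3.03% of all genes, and did not call Hic1. Limma-voom called 4 (Rspo1, Draxin, Hic1 and Apcdd1), against 2.55%. The feedback inhibitor Nkd1 was at 39.1, 41.1 and 43.5 CPM against 36.1, 32.8 and 35.1 CPM, a difference of -0.25 ± 0.10 (adjusted p = 0.257).

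At E9.0 none of the 84 was called, with 18 at an unadjusted p under 0.05 (against 13.3% of all genes), and DESeq2 and limma-voom also called 0. Averaged over the stages 6 were called, 2 higher and 4 lower, against 2.96% of all genes. Besides the 3 named above these were Ptk7, a planar cell polarity co-receptor (0.20 ± 0.05, adjusted p = 0.0428), Apcdd1, a membrane-bound Wnt inhibitor (-0.67 ± 0.14, adjusted p = 0.0382), and Apc2, a relative of the Apc scaffold (-0.40 ± 0.10, adjusted p = 0.0422). DESeq2 called 9, against 4.33% of all genes, and limma-voom called 4, without Ptk7 and Apc2, against 2.47%. Apcdd1 was at 83.05, 67.3 and 87.2 CPM in heterozygous and 47.3, 54.6 and 62.7 CPM in homozygous libraries at E9.0, and at 44.5, 75.2 and 45.4 against 31.8, 30.4 and 32.7 CPM at E9.5. Homozygous libraries were below all heterozygous ones at both stages, with an adjusted p of 0.0874 at E9.5 by edgeR. In the interaction 0 of the 84 were called by edgeR, DESeq2 or limma-voom, with 8 at an unadjusted p under 0.05 in edgeR, against 8.6% of all genes.

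More members were called between stages than between genotypes. Between E9.0 and E9.5 in heterozygous embryos, 25 of 40 members (62.5%) were called, 16 higher and 9 lower, against 35.2% of all genes (19.2% higher and 16% lower). In homozygous embryos 22 of 40 (55%) were called, 10 higher and 12 lower, against 35.4% of all genes (19.6% higher and 15.8% lower). Every fit without 1 library gave fewer homozygous calls, 14 to 20, with the 14 found without homozygous E9.5 replicate 3. Of the 25 heterozygous calls 18 were kept in all 6 fits without 1 library, and Dkk1, Fzd8, Fzd9, Lrp5, Lrp6, Wnt10a and Wnt5a were each lost in at least 1. Of the 22 homozygous calls 14 were kept in all 6, and Dkk1, Fzd9, Lrp5, Lrp6, Wnt2, Wnt5b, Wnt8b and Wnt9b were not. Of the members not called, 4 of 15 in heterozygous embryos (Axin2, Lef1, Sfrp5 and Wnt2b) and 3 of 18 in homozygous ones (Fzd8, Sfrp5 and Wif1) were called in at least 1 such fit. The medians over the members were -0.01 and -0.04 on the log2 scale, against 0.01 and 0.01 over all genes. The 2 stage comparisons use different libraries, and 18 members were called in both, each in the same direction (9 higher and 9 lower). That is 45.0% of the members, against 24.39% of all genes. As a share of the calls it is 72.0% of the heterozygous and 81.82% of the homozygous ones, against 69.25% and 68.96% over all genes.

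Of the 18 ligands, 11 were called higher and 0 lower with stage in heterozygous embryos, with a median log2 change of 0.67. In homozygous embryos 7 were called higher and 2 lower, with a median of 0.24. Ligand sums were 153 to 158 CPM at E9.0 and 216 to 249 CPM at E9.5 in heterozygous embryos, and 144 to 157 and 196 to 211 CPM in homozygous ones, with no overlap between stages.

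Wnt7a, a ligand of the neural tube and limb ectoderm, had the largest rise. It was at 1.32, 1.93 and 0.99 CPM at E9.0 and 8.17, 7.95 and 7.45 CPM at E9.5 in heterozygous embryos. In homozygous embryos it was at 1.80, 1.43 and 1.01 CPM and then 8.83, 8.69 and 6.93 CPM. The stages were far apart and the genotypes overlapped. The rises were 2.49 ± 0.21 (adjusted p = 3.0e-07) and 2.53 ± 0.21 (adjusted p = 3.3e-07) on the log2 scale, or 5.62-fold and 5.79-fold.

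Wnt4, a ligand of the early neural tube, rose by 1.28 ± 0.13 in heterozygous embryos (adjusted p = 1.9e-06), from 4.99, 5.04 and 5.29 CPM to 12.6, 12.9 and 11.7 CPM. It rose by 1.40 ± 0.14 in homozygous embryos (adjusted p = 1.3e-06). Wnt11 rose by 1.38 and 1.46, Wnt9a by 1.30 and 1.06, Wnt7b by 0.96 and 0.85, and the forebrain ligand Wnt8b by 0.73 and 0.64. Each of these was called in both genotypes.

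Other ligands were called in 1 genotype alone, and none of the 40 members was called in the interaction, so a difference between the genotypes was not shown. Wnt3 (1.23), Wnt3a (0.61), Wnt6 (0.43), Wnt5a (0.26) and Wnt10a (1.59) were called higher in heterozygous embryos. Their values in homozygous embryos were 0.32, 0.24, 0.15, 0.20 and -0.25. Wnt10a had 5, 1 and 7 reads per library at E9.0 in heterozygous embryos, against 29, 20 and 19 at E9.5. Its call was kept in 4 of 6 fits without 1 library.

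In homozygous embryos Wnt2 was called higher (1.69 ± 0.54, adjusted p = 0.0369). It was at 5.11, 4.29 and 1.62 CPM at E9.0 and 11.7, 13.2 and 10.5 CPM at E9.5, with a call in 0 of 6 fits without 1 library. In heterozygous embryos it was at 5.21, 5.68 and 0.90 CPM and then 12.4, 9.12 and 7.28 CPM, a difference of 1.36 ± 0.53 (adjusted p = 0.0752). Both genotypes thus had 1 low library at E9.0. Wnt9b (-0.60) and Wnt5b (-0.24) were called lower in homozygous embryos, with values of -0.02 and -0.03 in heterozygous ones. Wnt9b was called in 2 of 6 fits without 1 library, and Wnt5b in 0 of 6.

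Receptors split in direction. Fzd7, which has roles in early patterning and gastrulation, had the largest fall, from 245, 244 and 250.5 CPM at E9.0 to 134, 127 and 130 CPM at E9.5 in heterozygous embryos. In homozygous embryos it went from 231, 256 and 246 CPM to 162, 149 and 130 CPM. The stages did not overlap in either genotype. The log2 changes were -0.92 ± 0.07 (adjusted p = 1.3e-07) and -0.73 ± 0.07 (adjusted p = 1.1e-06).

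Fzd5, an eye field receptor, fell by 0.85 ± 0.11 (adjusted p = 3.6e-05) and 0.73 ± 0.11 (adjusted p = 1.18e-04). It was at 44.5, 50.1 and 49.0 CPM at E9.0 and 26.9, 27.7 and 25.3 CPM at E9.5 in heterozygous embryos, and at 48.2, 50.7 and 61.4 CPM and then 28.8, 29.2 and 38.7 CPM in homozygous ones. Fzd2 fell by 0.40 and 0.41 and Fzd9 by 0.38 and 0.37. Fzd6, a planar cell polarity receptor, rose by 0.69 and 0.48. Fzd8 was called higher in heterozygous embryos (0.31), with 0.17 in homozygous ones. Fzd1, Fzd3 and Fzd4 were called in neither genotype, with values between -0.12 and 0.16. Over the 10 receptors 3 were called higher and 4 lower in heterozygous embryos, and 1 higher and 4 lower in homozygous ones.

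The inhibitors also split, and in the same way in both genotypes. Of 8, 2 were called higher and 3 lower. Dkk2 rose by 1.93 ± 0.26 (adjusted p = 3.4e-05) in heterozygous embryos, where it was at 1.25, 1.34 and 2.11 CPM at E9.0, and by 1.82 ± 0.30 (adjusted p = 1.95e-04) in homozygous ones, where it was at 1.05, 1.26 and 0.95 CPM. The E9.5 values given above were all higher than these. Dkk3, a divergent member of the Dkk family, rose by 1.31 ± 0.13 (adjusted p = 2.2e-06) and 1.28 ± 0.13 (adjusted p = 2.4e-06), from 6.16, 8.15 and 5.42 CPM to 16.9, 14.7 and 17.2 CPM in heterozygous embryos.

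Frzb fell by 0.75 ± 0.10 in heterozygous embryos (adjusted p = 4.4e-05), to 19.9, 17.8 and 21.6 CPM. In homozygous embryos it fell by 0.80 ± 0.10 (adjusted p = 2.4e-05), to 23.9, 20.7 and 21.1 CPM. Sfrp1, at 228, 227 and 213 CPM in heterozygous and 230, 207 and 229 CPM in homozygous E9.0 libraries, fell by 0.57 ± 0.06 (adjusted p = 4.5e-06) and 0.39 ± 0.06 (adjusted p = 1.59e-04). Dkk1, a head inducer, fell by 0.41 and 0.48. Sfrp2 was called in neither genotype, with -0.20 and -0.04. Sfrp5, at 43 to 147 reads per library, had differences of -0.62 ± 0.30 (adjusted p = 0.126) and -0.67 ± 0.31 (adjusted p = 0.111), and was not called. Wif1, at 4 to 22 reads per library, was not called either.

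The co-receptors were called lower with stage in both genotypes, Lrp5 by -0.31 and -0.28 and Lrp6 by -0.18 and -0.14. In homozygous embryos both calls were lost in some fits without 1 library. Lrp6 (adjusted p = 0.0438) was called in 1 of 6 fits without 1 library, the one without E9.0 replicate 3, with adjusted p of 0.102 to 0.123 in the others. Its log2 value hardly moved in these 6 fits, from -0.16 to -0.13. The Lrp6 call was also lost in the compared groups alone (adjusted p = 0.0675), with a block for replicate number (0.0672) and without a count filter (0.261). Lrp5 (adjusted p = 0.0264) was lost without E9.0 replicate 3 (-0.17, adjusted p = 0.149) and without E9.5 replicate 2 (-0.27, 0.0644) or 3 (-0.23, 0.105). In heterozygous embryos Lrp5 was kept in 4 of 6 such fits and lost without E9.0 replicate 1 (-0.22, adjusted p = 0.0758) and E9.5 replicate 2 (-0.25, 0.0576), and Lrp6 was kept in 5 of 6 and lost without E9.0 replicate 3 (-0.15, 0.0554). Lrp6 there was also lost without a count filter (adjusted p = 0.0636) and with GC and length offsets (0.0527). Among the readouts, Axin2 fell in homozygous embryos (-0.58 ± 0.09, adjusted p = 1.68e-04), from 86.9, 85.2 and 95.3 CPM to 60.3, 58.4 and 59.7 CPM. In heterozygous embryos it was -0.20 ± 0.09 (adjusted p = 0.0988), and it was called lower in 2 of 6 fits without 1 library, those without E9.5 replicate 2 (-0.32, adjusted p = 0.00704) and E9.0 replicate 2 (-0.27, 0.0411). It was -0.12 without E9.0 replicate 1 (0.355) and without E9.5 replicate 1 (0.369). Lef1 was at -0.30 ± 0.12 (adjusted p = 0.0614) in heterozygous and -0.21 ± 0.12 (adjusted p = 0.202) in homozygous embryos. In heterozygous embryos it was called by DESeq2 (-0.32, adjusted p = 0.0435) and without E9.0 replicate 2 (-0.38, 0.0398) or 3 (-0.39, 0.0367), and was -0.14 (0.333) without E9.0 replicate 1. In homozygous embryos it ran from -0.32 (without E9.0 replicate 2) to -0.13 (without E9.0 replicate 3), called in 0 of 6 such fits, with adjusted p from 0.0624 to 0.5.

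**Figure D4:**
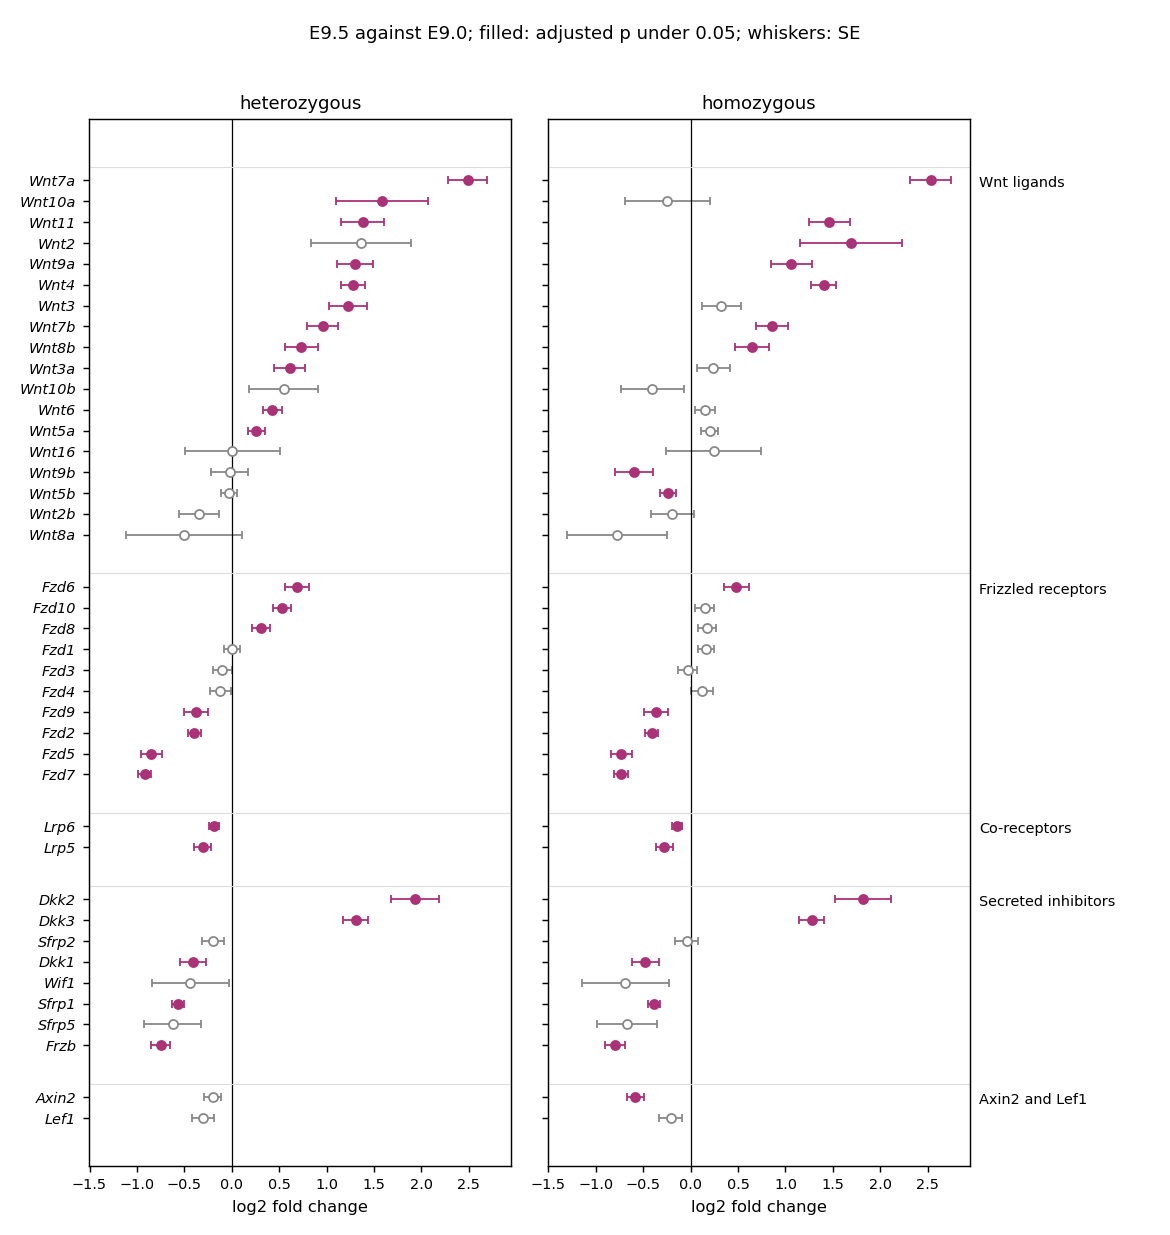
Log2 fold change of E9.5 against E9.0 for the 40 tested members in heterozygous and in homozygous embryos, with SE as whiskers and filled symbols for an adjusted p under 0.05. Wnt7a (2.49 and 2.53) and Dkk2 (1.93 and 1.82) are at the upper end in both, and Fzd7 (-0.92 and -0.73) and Frzb (-0.75 and -0.80) at the lower end.

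**Figure D5:**
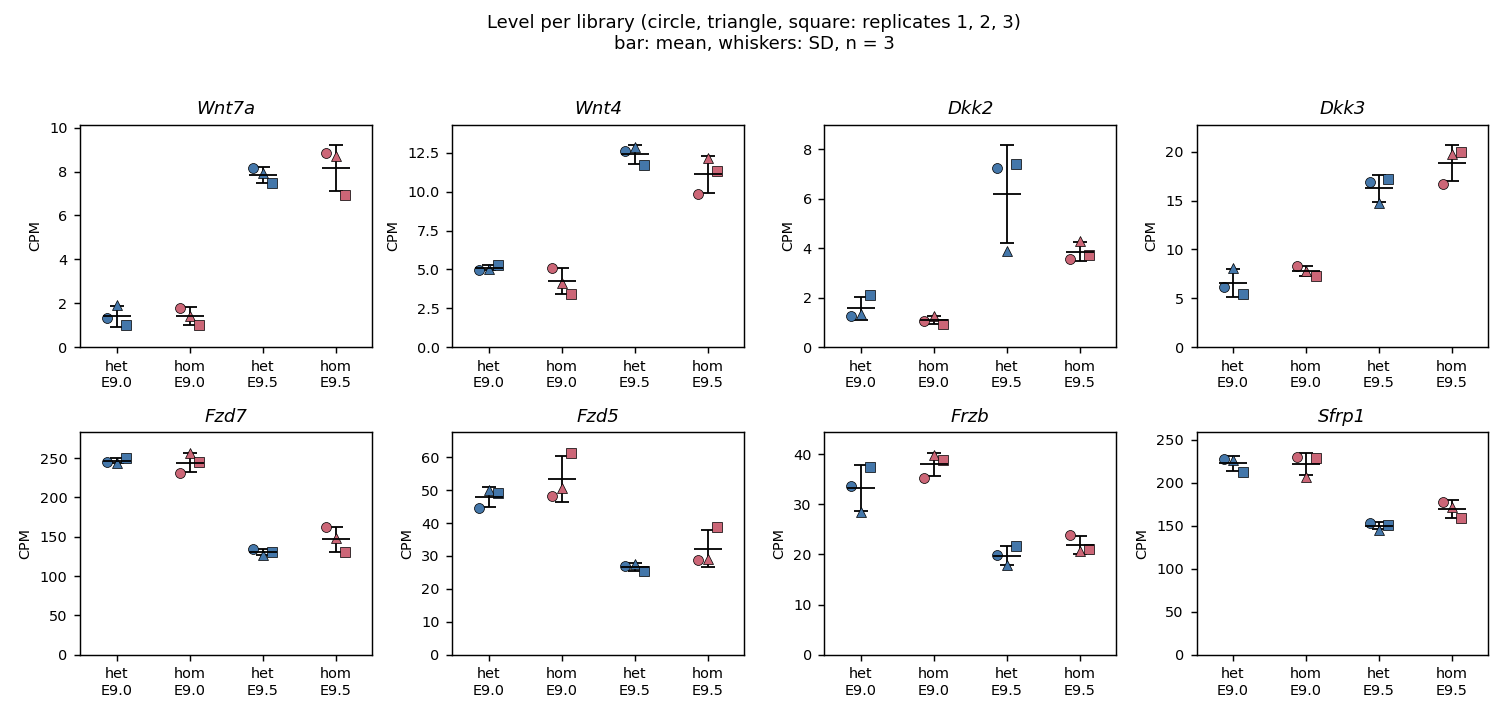
CPM of 8 members with large stage differences in each library (circle, triangle and square for replicates 1, 2 and 3), with mean and SD of 3 libraries per group. E9.0 and E9.5 libraries do not overlap within a genotype for Wnt7a, Wnt4, Dkk2, Dkk3, Fzd7, Fzd5, Frzb or Sfrp1.

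The stage falls are relative to the other genes of the library. Scaled by total counts alone, the median of all genes moved to 0.38 in heterozygous and 0.18 in homozygous embryos. The members called were then 21 of 40, 19 higher and 2 lower, in heterozygous embryos, against 47.1% of all genes, of whose calls 96.4% were higher. In homozygous embryos they were 14 of 40, 10 higher and 4 lower, against 22.5% of all genes, with 87.1% of the calls higher. Lrp5 and Lrp6 turned to 0.08 and 0.18 in heterozygous embryos, and Lrp6 to 0.03 in homozygous ones. The stages also differed in tissue content, with heart muscle markers at 69.4 to 356 CPM in E9.0 and 2014 to 3188 CPM in E9.5 libraries and primitive red cell markers at 537 to 1173 and 2788 to 5197 CPM. Cranial ganglion markers had 7 of 8 called higher with stage in heterozygous embryos, from 87.2 to 89.4 CPM at E9.0 to 175 to 206 CPM at E9.5, and 6 of 8 in homozygous ones, from 85.8 to 87.6 to 151 to 161 CPM. Migrating neural crest markers went the other way, with 6 of 8 called lower in heterozygous embryos (321 to 334 CPM, then 192 to 225 CPM) and 5 of 8 in homozygous ones (269.7 to 296 CPM, then 200.3 to 223 CPM), and 1 called higher in each. Of the 9 roof plate markers, 6 were called higher in heterozygous embryos, and 4 higher and 2 lower in homozygous ones. These list counts come from the edgeR test used throughout, not from total-count scaling. In that test 19.2% of all genes were called higher and 16% lower in heterozygous embryos. In homozygous embryos it was 19.6% and 15.8%. The part of tissue content in the stage differences was not tested.

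Of the 84 other pathway genes, 38 (45.2%) were called with stage in heterozygous embryos, 16 higher and 22 lower, and 33 (39.3%) in homozygous ones, 16 higher and 17 lower. The shares over all genes were 35.2% and 35.4%, so the homozygous share was near the background. The R-spondin genes Rspo1, Rspo2 and Rspo3, which encode secreted agonists, were called higher in both genotypes. Rspo3 was at 1.83, 4.02 and 2.41 CPM at E9.0 and 17.2, 18.3 and 17.6 CPM at E9.5 in heterozygous embryos. Sp5, a direct Wnt target gene, was called in both genotypes and was at 17.3, 14.5 and 16.03 CPM at E9.0 and 6.52, 9.39 and 6.57 CPM at E9.5. Among the 13 tested feedback and target genes, 2 were called higher and 6 lower in heterozygous embryos, and 4 higher and 7 lower in homozygous ones. In the edgeR test used throughout, most ligands called with stage thus rose, while most called target genes fell. As stated above, falls with stage are relative to the other genes of the library. A link between the ligands and the target genes was not tested.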

How the data were processed

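RNA was extracted from mouse embryo heads with a column kit, and the libraries were made by standard Illumina steps, per the labels' protocols. Per the submitters' processing notes, cutadapt, STAR, featureCounts and MultiQC were used with build mm10; their versions, the annotation and the use of strand are not given in the sources used here. The authors deposited whole-number read counts per gene, not normalised, for all 12 libraries.

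Gene symbols were matched to the GENCODE M21 annotation of GRCm38 for lengths and positions: 23376 matched by symbol, 661 by synonym and 384 not at all. From the deposited counts, genes with low counts were left out by filterByExpr (9611 genes, at most 0.0778% of a library's counts), TMM factors were computed, and all 12 libraries entered 1 fit of 4 group means by edgeR 4.0.16 (quasi-likelihood F test, robust, two-sided; R 4.3.3). Its 6 contrasts were genotype at each stage, genotype averaged over the stages, their interaction, and stage in each genotype. P-values were adjusted by Benjamini-Hochberg over the 14810 genes, with a threshold of 0.05. The common biological coefficient of variation was 8.77%. CPM used TMM-scaled totals. Depth sets the precision: 3 reads, about the limit that a count of 0 allows, equal 0.0880 to 0.225 CPM across the libraries. No 2 libraries of a group matched within counting noise.

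In 1 simulated data set per contrast, 200 genes with mean counts of 50 and above were changed, 100 by 1.5-fold and 100 by 2-fold. Counts were drawn with the dispersion of the fit, without further spread of single genes. The E9.5 contrast recovered 90 of the 1.5-fold and 99 of the 2-fold changes among 14623 genes tested, with 5 false calls. The E9.0 contrast recovered 86 and 97 among 14640 genes, with 6 false calls. Members with fewer reads or a wider spread are not covered by these shares.

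Members follow from symbol patterns, and 1 further Wnt row, 1 gene of the pathway lists and 2 of the marker lists are not reported here. Members, pathway lists and marker lists were chosen with earlier results of these data known. Named per library were all members called between genotypes, the 3 largest rises and falls with stage, the most abundant member of each family, the readouts and co-receptors, and the smallest p of a family without a call; others are given by range, or by values where a sentence compares them. Alternatives were RLE, upper-quartile and total-count scaling, TMM without Rn45s in the totals, DESeq2 1.42.0, limma 3.58.1 (voom), testing without a filter or at mean counts of 50 and above, no robust estimation, the compared groups alone, a replicate block, a stricter threshold of 0.01, testing against 1.5-fold changes, GC and length offsets, and each library left out.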

Additional observations from a re-analysis of the deposited data

How the results depend on the processing

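Scaling by total counts alone gave 0 calls at E9.5, 0 averaged over the stages and 14 with stage in homozygous embryos. The test against a 1.5-fold change gave 0, 0 and 5, and 8 with stage in heterozygous embryos; an adjusted p under 0.01 gave 1, 0 and 14. Averaged over the stages, limma-voom gave 1 call, Fzd10, without Axin2. The replicate block also gave 1 call there, Fzd10 (Axin2: adjusted p = 0.0625), gave Lrp6 with stage in homozygous embryos an adjusted p of 0.0672, and moved no other count of member calls by over 1.5 times; same-numbered libraries of a stage correlated at 0.0297 to 0.1086 (E9.0) and 0.0309 to 0.0689 (E9.5), so the numbers were not taken to pair them. Without 1 library, calls ranged from 1 to 2 at E9.5, 1 to 3 for the average, 21 to 26 with stage in heterozygous and 14 (without homozygous E9.5 replicate 3) to 20 in homozygous embryos, and 0 to 0 at E9.0 and in the interaction. For Axin2 at E9.5, 11 of 14 other settings kept the call, and for Fzd10 12 of 14. Of the 240 values of the 40 members in the 6 contrasts, 80 changed sign under at least 1 alternative; 3 of these were called (Lrp5 and Lrp6 with stage in heterozygous and Lrp6 in homozygous embryos) and 77 were not. Among the members followed value by value, those turned under total counts were Axin2 at E9.0 (0.13) and with stage in heterozygous embryos (0.18), Lef1 with stage there (0.10), Lrp5 and Lrp6 with stage there (0.0808 and 0.18), Lrp6 with stage in homozygous embryos (0.0263) and the interactions of Lef1 (-0.13), Lrp5 (-0.18), Lrp6 (-0.15) and Sfrp1 (-0.0201). Lrp6 at E9.0 turned to 0.0231 with upper-quartile factors, 0.18 with total counts, 0.0012 without Rn45s, 0.0068 with the count filter of 50, 0.0687 with GC and length offsets and 0.0062 in the compared groups alone, and ran from -0.0456 to 0.0236 without 1 library. Its interaction was -0.0289 with GC and length offsets. Without 1 library, turned values of these members also included Lrp5 at E9.0 (-0.0374 to 0.15), Lrp6 averaged over the stages (-0.0043 to 0.0303) and the interactions of Lef1 (-0.071 to 0.18) and Lrp5 (-0.0526 to 0.14). The causes were not tested.

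Over all genes, total counts moved the share of calls that were higher from 73.6% to 96.2% at E9.0, from 62.9% to 47.2% at E9.5, from 61.5% to 84.7% for the average, and with stage from 54.4% to 96.4% and from 55.3% to 87.1%. At E9.0 it was also 63.4% with GC and length offsets, 63.5% with DESeq2, 61.7% without a count filter, 88.2% at an adjusted p under 0.01 and 94.1% in the test against a 1.5-fold change. That test called 13 genes at E9.5, with 0% higher, and moved the share to 84.1% and 79.5% with stage in heterozygous and homozygous embryos. Of the interaction calls 10% were higher, and 28.4% with DESeq2, 28.6% with GC and length offsets and 41.7% without a count filter. For the average, the 439 calls over all genes became 246 to 411 without 1 library, with 246 when homozygous E9.5 replicate 2 was dropped. With heterozygous replicate 2 of E9.0 left out they were 249, and with homozygous replicate 3 of that stage left out 285. The 10 interaction calls became 1 when homozygous E9.5 replicate 3 was dropped and 16 when heterozygous replicate 2 of that stage was; they stayed within 1.5 times of 10 when the library dropped was replicate 3 of either heterozygous group or replicate 1 or 2 of the homozygous E9.0 group, and fell to 2, 4 or 6 for the others. Calls over all genes, 87 at E9.0, 280 at E9.5, 439 for the average, 10 in the interaction and 5216 and 5238 with stage, also moved by over 1.5 times in the settings that follow. DESeq2 gave 203, 449 and, in the interaction, 74, GC and length offsets 205 at E9.0, 693 for the average and 21 in the interaction, and limma-voom 51 at E9.0 and 5 in the interaction. Total counts gave 123 at E9.5 and 3325 with stage in homozygous embryos. In the order above, an adjusted p under 0.01 gave 34, 81, 159, 1, 3325 and 3387, and the test against a 1.5-fold change 17, 13, 19, 2, 963 and 936. With 3 libraries a group, an exact permutation test of 1 value could not go below 0.1. Wnt8a, Wnt10a and Dkk4 had 0 to 29 reads per library, which limits what can be said of them.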
